A study of Arabidopsis thaliana with 2 samples.

Results

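Transcripts of 5 nuclear genes for the photosynthetic membrane of the chloroplast were compared between seedlings of the Arabidopsis thaliana mutant sks (snakeskin) and wild-type Col-0 seedlings. The genes were PSAN (AT5G64040), a subunit of photosystem I, PSBY (AT1G67740), a subunit of photosystem II, PSB27 (AT1G03600), an assembly factor of photosystem II, and the antenna genes LHCB4.1 (AT5G01530) and LHB1B2 (AT2G34420). They were named with earlier results of these data known, so their direction is a description, and every probe set assigned to one of them alone was used, which gave 6 probe sets, 1 for each gene except LHB1B2 with 2. The array's annotation resolved 3592 genes in all. The sks seedlings carried an insertion in the Col-0 background, and which gene it disrupts is not stated in the labels, so the genotype was not checked on a transcript. The Col seedlings were unmodified. Both were whole seedlings at growth stage 1.0, kept at 22 °C under light for 24 hours a day, on agar (1%) with Murashige-Skoog salts and 1% sucrose. Each genotype was represented by 1 array, and the mutant by a single line. The labels do not say how many seedlings went into an RNA sample.

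Photosystem II splits water and passes the electrons through a carrier chain to photosystem I, which delivers them to ferredoxin. Antenna proteins bind chlorophyll around both photosystems and pass the absorbed light energy to their reaction centres. The chloroplast genome encodes the reaction centre proteins and many small subunits, whereas other subunits, the antenna proteins and most factors that assemble and repair the complexes are encoded in the nucleus, made in the cytosol and imported. In seedlings these nuclear genes are switched on by light during greening and give some of the most abundant messenger RNAs of green tissue.

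Expression was measured as signal intensity, a linear brightness per probe set, on 2 Affymetrix arrays of 8297 probe sets. The 2%-trimmed mean signal was 100.2 on both arrays. Differences are given as log2 of the sks signal minus log2 of the Col signal, so a negative value is a lower signal in sks. With 1 array per genotype there is no replicate error, no test was made, and each difference describes these 2 RNA samples. The RNA controls differed in part: GAPDH had a 3′ over 5′ signal ratio of 4.14 in sks and 2.94 in Col, and that for ubiquitin was 4.65 in sks and 4.84 in Col. The 3′ GAPDH signal was 2730.2 in sks and 1117.2 in Col, and the 25S ribosomal RNA control read 117.2 in sks and 296.8 in Col. The part of these controls in the differences below was not tested. The 9 hybridisation spikes were brighter on the sks array, by a median ratio of 1.36. In whole seedlings, fewer green cells and less of a transcript per green cell cannot be told apart.

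All 6 probe sets had a lower signal in sks than in Col. The size of the difference varied widely between genes, with PSB27 at 2.74-fold lower and LHB1B2 at 1.05-fold lower on its brighter probe set. Only PSB27 differed by at least 2-fold. PSBY lay just short of that limit.

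PSAN encodes a lumenal subunit of photosystem I on the side where plastocyanin delivers electrons. Its probe set read 1848.3 in sks and 2710.7 in Col. The sks signal was 1.47-fold lower, a log2 difference of -0.55. PSAN was thus lower in sks by a margin inside the 2-fold limit.

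PSBY encodes a precursor that is cut into small membrane proteins of photosystem II. Its probe set had a signal of 2815.6 in sks and 5618.3 in Col, a log2 difference of -0.997. The fold was 1.995, the closest to the 2-fold limit among the 5 genes and just inside it. Its probe set carries the _s_at suffix, by which Affymetrix marks probes that can also match related transcripts, so part of the signal may belong to a similar gene.

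PSB27 encodes a lumenal protein that binds photosystem II during its assembly and repair. Its signal was 919.7 in sks and 2523.0 in Col. The sks signal was 2.74-fold lower, with a log2 difference of -1.46. This was the largest difference of the 6 probe sets. The probe set has a plain _at suffix, with no shared probes marked.

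LHCB4.1 encodes a minor antenna protein that links the outer light-harvesting trimers to the photosystem II core. Its probe set, also with a plain suffix, read 4306.8 in sks and 5954.7 in Col, a 1.38-fold lower signal in sks with a log2 difference of -0.47. LHCB4.1 was thus lower in sks, inside the 2-fold limit.

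LHB1B2 encodes a protein of the major light-harvesting trimer of photosystem II, and its 2 probe sets gave different sizes. The _s_at probe set read 4085.4 in sks and 4300.8 in Col, a log2 difference of -0.07. The _r_at probe set, which Affymetrix designed under relaxed rules, read 150.1 in sks and 266.7 in Col, a log2 difference of -0.83. The gap between the 2 probe sets was 0.76 on the log2 scale. Over all genes with several measured probe sets, 101 pairs from 80 genes had a median gap of 0.33, and 13 pairs (12.9%) were at least as far apart as the LHB1B2 pair. The neighbouring gene LHB1B1 encodes a closely related protein and has no single-gene probe set in the annotation used here, and the share of related transcripts in the _s_at signal is unknown. No single size can therefore be given for LHB1B2.

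**Figure D1:**
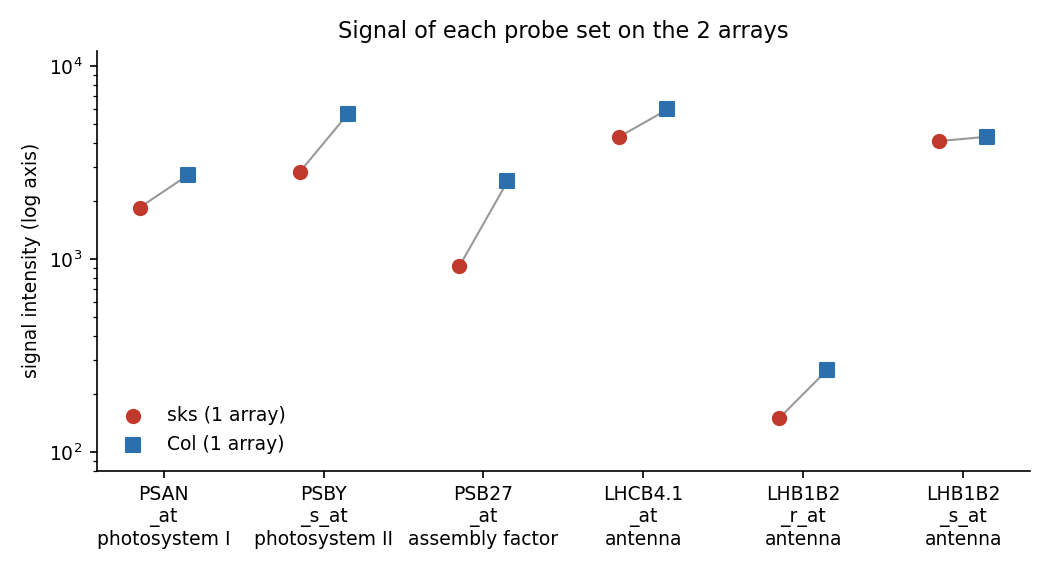
Signal intensity (log axis) of the 6 probe sets, with sks as circles on the left and Col as squares on the right of each pair, 1 array each. Every sks point lies below its Col point, by the widest margin for PSB27 (919.7 in sks and 2523.0 in Col) and the narrowest for the _s_at probe set of LHB1B2 (4085.4 in sks and 4300.8 in Col).

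Ranks by signal on each array do not depend on how the arrays were scaled to each other. They also reflect how well each probe set binds its target, so a rank is read here only against the same probe set's rank on the other array. Among the 8247 probe sets that are not controls, LHCB4.1 ranked 44 in sks and 20 in Col, where rank 1 is the brightest. PSBY ranked 103 in sks and 26 in Col. PSAN ranked 173 in sks and 100 in Col. PSB27 ranked 343 in sks and 109 in Col, 234 places lower in sks.

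The _s_at probe set of LHB1B2 held its place, at rank 49 in sks and 48 in Col. Its _r_at probe set ranked 1312 in sks and 930 in Col. The other 5 probe sets all lay within the brightest 4.16% of probe sets on the sks array and the brightest 1.32% on the Col array. When only the 3794 single-gene probe sets were ranked, LHB1B2 (_s_at) stood at 12 in sks and 13 in Col, so its direction by rank is not settled. The other 5 probe sets had a lower place in sks by this ranking too: LHCB4.1 stood at 9 in sks and 6 in Col, and PSB27 at 109 in sks and 23 in Col.

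**Figure D2:**
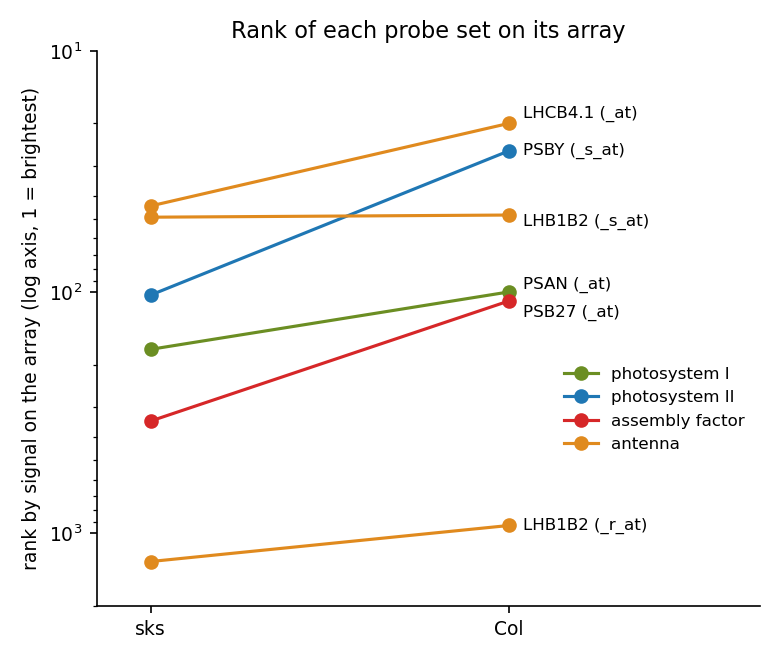
Rank by signal (log axis, 1 is the brightest) of the 6 probe sets on the sks array (left) and the Col array (right), coloured by role. PSBY stands at 103 in sks and 26 in Col and PSB27 at 343 in sks and 109 in Col, whereas the line of LHB1B2 (_s_at) is nearly level, at 49 in sks and 48 in Col.

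Differences between the roles compare how unequally the genes differed, and are the same under any common scaling of the arrays. PSB27, the assembly factor, was lower in sks than LHCB4.1, of the antenna, by a further 0.99 log2 units, or 1.98-fold. It was lower than PSAN, of photosystem I, by a further 0.90 log2 units. PSB27 and PSBY, both of photosystem II, lay 0.46 apart, and PSBY and PSAN 0.44 apart. PSAN and LHCB4.1 lay 0.09 apart.

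For scale, 10 of the 101 pairs of probe sets that read one gene (9.90%) were at least as far apart as PSB27 and LHCB4.1. By comparison, 33 pairs (32.7%) were at least as far apart as PSB27 and PSBY, and 77 pairs (76.2%) at least as far apart as PSAN and LHCB4.1. Such pairs were hybridised with the same RNA, so they give no replicate error. They were taken at any measured signal and with any suffix, whereas PSB27 and LHCB4.1 are bright probe sets of plain suffix. By size of the difference the order of these genes was PSB27, then PSBY, then PSAN close to LHCB4.1. LHB1B2 could not be placed in this order, since its probe sets fell on either side of PSAN. Each role held 1 or 2 genes, and no role was tested. Further genes of these roles, given below, did not all keep the order. For example, PSBW (-0.43), of photosystem II, was less low than PSAN (-0.55), and the assembly factor PAM68 (0.40) was higher in sks.

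Of 4124 measured probe sets, those whose mean log2 signal reached the median (a signal of 19.4), 510 (12.4%) were at least 2-fold lower in sks and 335 (8.12%) at least 2-fold higher. All 6 probe sets of the 5 genes were measured. Of them, 1 (PSB27) was at least 2-fold lower, which is a share near that background, and none was at least 2-fold higher. Lower by any amount were 54.4% of measured probe sets, against 6 of the 6, or 5 of the 6 after median centring. The 6 count LHB1B2 in 2 probe sets, and its _s_at probe set (-0.07) lay beside the median of measured probe sets (-0.08). The genes were named with earlier results known, so this count only describes them. Scaling to the hybridisation spikes turned the background counts to 1092 lower and 135 higher, and under it 3 of the 6 probe sets (PSB27, PSBY and LHB1B2 _r_at) were at least 2-fold lower.

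The median log2 difference was -0.08 over measured probe sets. It was 0.12 over the 413 probe sets in the brightest 5% by mean signal, a limit chosen after the values were seen. With the deposited scaling the bright end of the arrays was therefore slightly higher in sks, and 43.3% of its probe sets were lower by any amount. Spike scaling shifts each difference down by 0.44 log2 units, more than this median, so that direction depends on the scaling. Of the 413, 9.69% were at least 2-fold lower and 7.75% at least 2-fold higher. The 5 brightest of the 6 probe sets belong to this bright end, and each was lower in sks, with PSB27 alone past 2-fold. At least as low as PSB27 were 20 of the 413 (4.84%), as low as PSBY 41 (9.93%), as low as PSAN 90 (21.8%) and as low as LHCB4.1 105 (25.4%). The _s_at probe set of LHB1B2 stood near the middle, with 167 (40.4%) at least as low.

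**Figure D3:**
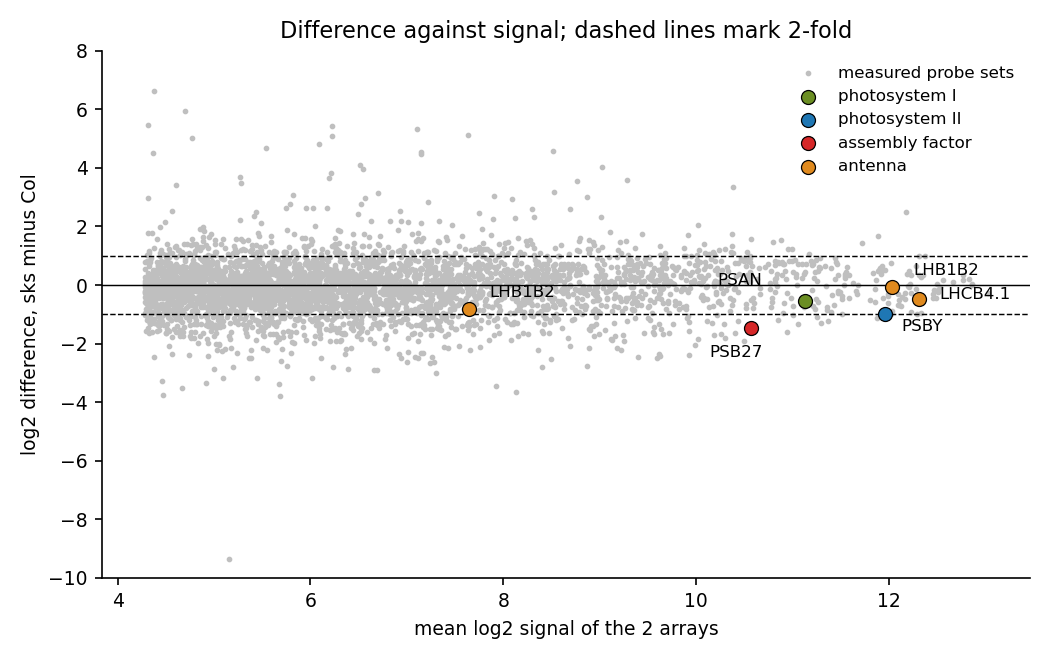
Log2 difference (sks minus Col) against the mean log2 signal of the 2 arrays for the 4124 measured probe sets (grey), with the 6 probe sets coloured by role and dashed lines at 2-fold. PSB27 (-1.46) lies below the lower dashed line, PSBY (-0.997) on it, and the others between it and 0.

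The rest of the photosynthetic apparatus was read from 9 gene lists of 126 genes. Of these, 16 had a single-gene probe set and 15 were measured, among them the 5 genes above. Of the other 10, 7 had lower and 3 higher signals in sks, with 2 at least 2-fold lower and 1 at least 2-fold higher. Over all measured probe sets 54.4% were lower, 12.4% at least 2-fold lower and 8.12% at least 2-fold higher, so these counts are near the background. Their median log2 difference was -0.44, beside -0.08 over all measured probe sets. No gene of the photosystem I antenna list or of the list for antenna targeting and light acclimation had a single-gene probe set, so the antenna is read here from photosystem II only.

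In the photosystem I list, with 2 of 12 genes measured, PSAE-1 stood beside PSAN. PSAE-1 encodes a stromal subunit near the ferredoxin docking site. Its brightest probe set read 4813.0 in sks and 6511.7 in Col, a log2 difference of -0.44, and its others gave -0.30 and -0.51. Its brightest probe set has the _s_at suffix, and the others end in _i_at and _r_at. In the photosystem II list, with 2 of 12 measured, the small subunit gene PSBW read 4918.9 in sks and 6649.5 in Col (-0.43). Its second probe set, with the suffix _g_at that was counted here as shared, gave -0.50. PSBY was lower in sks than either probe set of PSBW, by a further 0.49 and 0.56 log2 units. For scale, 32.7% of the 101 same-gene pairs above were at least 0.46 apart.

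In the list of assembly and repair factors, 3 of 26 genes were measured and they did not share a direction. PYG7 (AT1G22700), which acts in photosystem I assembly, read 80.2 in sks and 160.4 in Col, exactly at the 2-fold limit. PAM68, which acts in photosystem II assembly, read 36.4 in sks and 27.6 in Col, a log2 difference of 0.40 on an _s_at probe set near the dim end of the measured range. In the photosystem II antenna list, 3 of 15 genes were measured. LHCB4.3, a relative of LHCB4.1, read 58.9 in sks and 133.0 in Col, 2.26-fold lower, also on an _s_at probe set. The list median of -0.47 is the value of LHCB4.1 itself, which lay between LHB1B2 (_s_at) and LHCB4.3, so it adds nothing to LHCB4.1. LHCB4.3 was lower in sks by a further 0.71 log2 units than LHCB4.1, on a far dimmer probe set. The 2 probe sets of LHB1B2 alone lay 0.76 apart.

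Outside the photosystems, PETM (AT2G26500), a small subunit of the cytochrome complex that joins them, read 1090.3 in sks and 1286.4 in Col (-0.24). RCA, the activase of Rubisco, read 4224.3 in sks and 5970.1 in Col (-0.50), on an _s_at probe set. The chlorophyll synthesis list, with 3 of 23 genes measured, ran in both directions around a median of 0.05. PORB, a protochlorophyllide reductase gene, was 2.22-fold higher (346.7 in sks and 156.3 in Col), on an _s_at probe set. HEME2, the uroporphyrinogen decarboxylase gene of the same route, read 181.2 in sks and 307.1 in Col (-0.76). GSA1, for an aminotransferase early in the route, read 209.0 in sks and 201.2 in Col. Of the measured genes of this route, HEME2 was thus lower and PORB higher in sks, while GSA1 (0.05) was nearly equal.

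**Figure D4:**
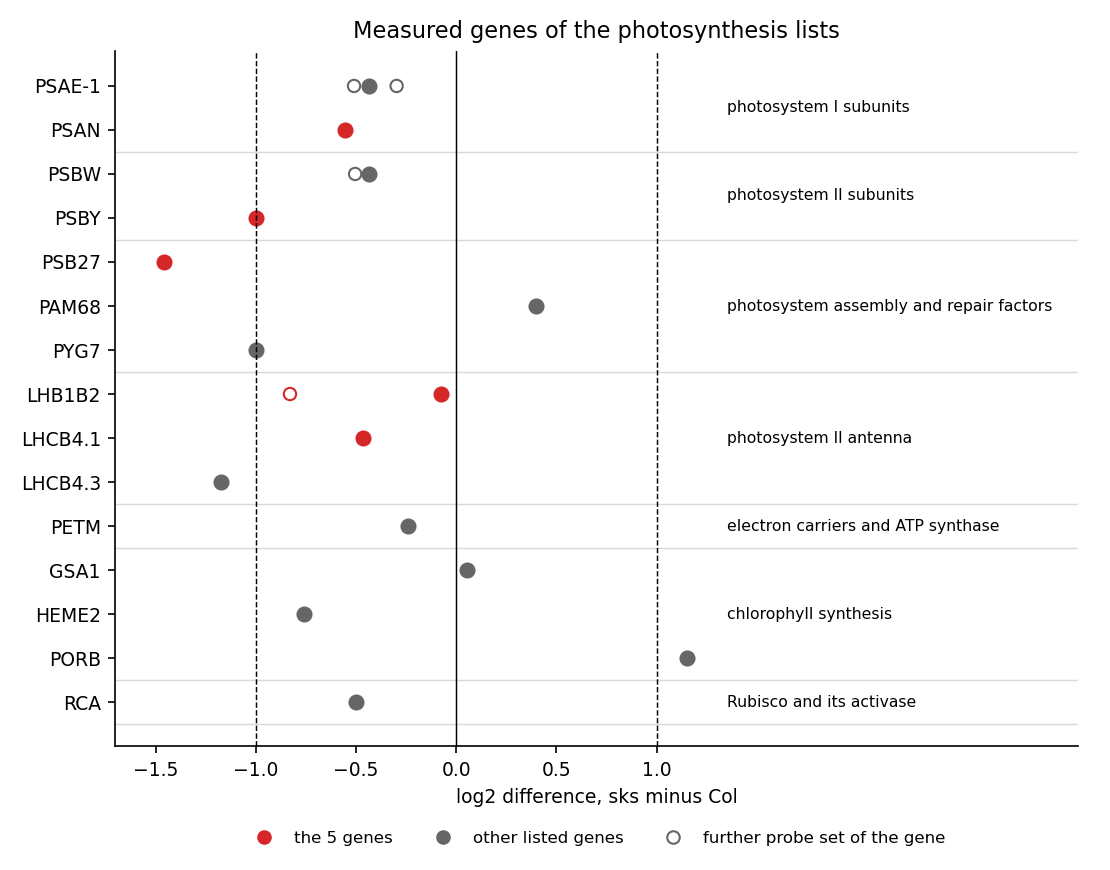
Log2 difference (sks minus Col) of the 15 measured genes of the photosynthesis lists, with filled points for the brightest probe set of a gene, open points for its further probe sets, the 5 genes in red and dashed lines at 2-fold. The subunit and antenna genes lie left of 0, PSB27 farthest (-1.46), while PAM68 (0.40), GSA1 (0.05) and PORB (1.15) lie to the right.

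Over the 2 arrays, the single-gene probe sets with signals nearest to those of each gene were found by Euclidean distance of log2 signals. The nearest to LHCB4.1 was RCA, at a distance of 0.03, followed by PSAE-1 at 0.21. The nearest to PSB27 was TRXF2, a chloroplast thioredoxin gene, at 0.26, with 904.5 in sks and 2105.2 in Col. PSBY had AT4G01150 at 0.38 and PSBW at 0.40. PSAN had AT4G29020 at 0.29 and ECS1 at 0.39. LHB1B2 (_s_at) had PSAE-1 at 0.17 and AT2G45180 at 0.27. The second nearest to PSB27 was AT1G49500, at 0.33. This likeness rests on 2 values per gene. It compares signals of different probe sets, which depend on how well each binds its target, so it mostly matches brightness. The near genes of PSAN, for example, had log2 differences of -0.17 (AT4G29020) and -0.86 (ECS1), beside -0.55 for PSAN.

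The chromosomal neighbours within 5 genes on either side, in the order of the RefSeq gene table, included 2 measured genes. AT1G03610, directly beside PSB27, read 39.4 in sks and 88.4 in Col, a log2 difference of -1.17. AT2G34460, 4 genes from LHB1B2, read 178.4 in sks and 428.3 in Col (-1.26). PSAN, PSBY and LHCB4.1 had no measured neighbour in that window.

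The make-up of the seedlings could be checked on few markers. Of 25 marker genes for root, seed, epidermis and senescence, 1 had a single-gene probe set. That was ICL, the isocitrate lyase gene used while seed oil reserves are consumed, with a signal of 308.7 in sks and 35.3 in Col. It thus stood 8.75-fold higher in the sample where the 6 probe sets were lower, and its part in those differences was not tested. The other 8 genes of the seed list and all markers of root, epidermis and senescence were not analysed here.

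The direction of the 6 probe sets was then followed under other treatments of the signals. PSB27 stayed at least 2-fold lower in each of 6 alternatives, between -1.37 after median centring and -1.90 after spike scaling. PSBY crossed the 2-fold limit in 2 of them, at -1.05 after removal of a loess trend and -1.44 after spike scaling. PSAN lay between -0.47 and -0.99, and LHCB4.1 between -0.37 and -0.91. The _r_at probe set of LHB1B2 lay between -0.75 and -1.27, past 2-fold only after spike scaling. Its _s_at probe set was the only one of the 6 to change sign under these alternatives, at 0.01 after median centring, and stood at -0.52 after spike scaling. Not all 6 alternatives could change these values. The floor at the highest blank lies below all the signals here and left each value as it was. The offset of 16 is small beside the PSB27 signals, and moved that difference only from -1.46 to -1.44.

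**Figure D5:**
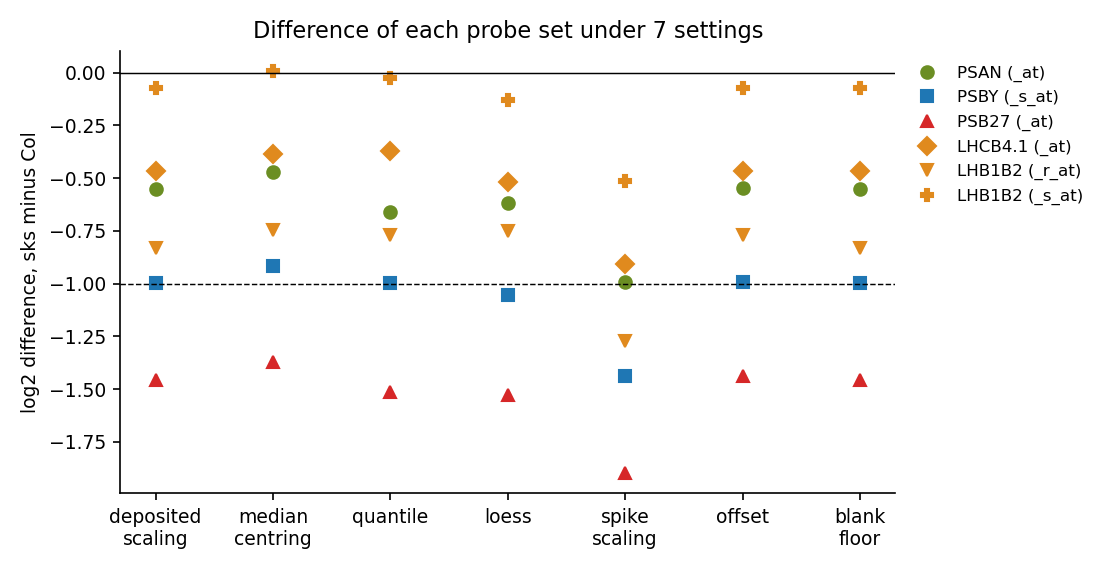
Log2 difference (sks minus Col) of the 6 probe sets with the deposited scaling and under 6 alternatives, with a dashed line at 2-fold lower. PSB27 lies below that line throughout, PSBY crosses it after loess removal (-1.05) and spike scaling (-1.44), and LHB1B2 (_s_at) stays near 0 except after spike scaling (-0.52).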

How the data were processed

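Biotin-labelled cRNA from 1 sks and 1 Col seedling sample was hybridised to 2 Affymetrix arrays, per the labels' protocols. The authors deposited linear signal intensities, 1 per probe set, by a summarisation method not given in the sources used here. On the arrays the 2%-trimmed means differed by under 1%, so the deposited scaling was kept. Mean scanner background was 61.92 for sks and 57.92 for Col, per the labels. Signals below 1 were set to 1 before log2 (Python 3.11.15, pandas 2.3.3). The 50 control probe sets were left out. The array number limits the precision.

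Genes came from the platform annotation, which can be old: 3794 probe sets had 1 gene, 70 several and 4383 were unnamed here. The RefSeq table of TAIR10.1 matched 3784. Coordinates are not given, as the files name no build. The members and lists were chosen with earlier results of these data known. Named were all probe sets of the 5 genes, every measured listed gene, and the 2 nearest patterns of each gene. The counting was tested on simulated data with less scatter than these arrays, which checks the counting step and not how reliable the counts are. Alternatives changed scaling, offset, floor, filter, limit and probe set kind; loess used a span of 0.3 (statsmodels 0.14.6).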

Additional observations from a re-analysis of the deposited data

How the results depend on the processing

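The 510 probe sets at least 2-fold lower and 335 at least 2-fold higher were 1092 and 135 with spike scaling and 334 and 222 with an offset of 16. Other settings change the counts by construction, through the probe sets tested or the limit. Without a filter 1258 were lower and 1008 higher, above the 75th percentile of signal 259 and 194, among single-gene probe sets of plain suffix 175 and 96, and in the brightest 5%, chosen after seeing the data, 40 and 32. A 1.5-fold limit gave 1048 lower and 751 higher, and a 3-fold limit 185 and 105. Adding the same 16 to both signals shrinks the ratio between them, most for dim probe sets. The lower counts with the offset therefore also follow by construction. Among single-gene probe sets alone, which are fewer by construction, the top percent by rank on the sks array was 1.37 for PSAN, 0.606 for PSBY, 0.237 for LHCB4.1 and 0.316 for LHB1B2 (_s_at), against 2.10, 1.25, 0.534 and 0.594 among all. On the Col array it was 0.554 for PSAN, 0.184 for PSBY, 0.606 for PSB27, 0.158 for LHCB4.1 and 0.343 for LHB1B2 (_s_at), against 1.21, 0.315, 1.32, 0.243 and 0.582 among all. Of 108 values recomputed, the 83 others moved by no more than 1.5 times, where a log2 difference was judged on its fold. Spike scaling shifts every log2 difference by the same 1.36-fold, and median centring by less, so neither could move one past that limit. For log2 differences and their medians these settings therefore do not test stability. The _s_at probe set of LHB1B2 counted among the 83 although it changed sign after median centring (0.01). So did the chlorophyll synthesis median of 0.05, which stood at -0.39 after spike scaling. With 1 array per genotype there was no replicate to leave out. No paired analysis was possible because there was a single pair of arrays.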
